A study of Mus musculus with 16 samples.

Results

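*Xkr4*, *Rassf9* and *Patj* are the genes whose start sites lay nearest to the 3 regions that head the deposited list of chromatin closed in GFPhigh cells. Their members here were all listed ATAC-seq peaks, from either list, whose centre had a start site of one of these genes as its nearest protein-coding start. This rule took 40 of 80367 listed peaks, with 11 at *Xkr4*, 13 at *Rassf9* and 16 at *Patj*. The genes were picked from the closed list, by the adjusted p of the authors' comparison. The closed state of those 3 regions was therefore the reason for looking at them and is described without a test, as is the list of every other member. A small adjusted p also favours regions with many reads, so the high signal ranks of those 3 regions are tied to the choice and are given as descriptions only.

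The cells came from small cell lung cancer (SCLC) tumors of *TKO*;*Hes1*GFP/+ mice. In these mice floxed *Rb*, *p53* and *p130* are deleted in lung cells by an instilled adenovirus with Cre under the CMV promoter, which is not specific to one cell type, and GFP is made from the endogenous *Hes1* locus. Tumors were induced in young adult mice of both sexes, and the tumors of a mouse were collected months later and pooled. Tumor cells of both groups thus carry the same 3 targeted deletions, and the groups differ in the reporter: GFPhigh (non-neuroendocrine, non-NE) against GFPneg (neuroendocrine, NE) cells sorted from the same tumors. There were 4 pairs from 3 mice, 2 of the pairs from 1 mouse, giving 8 libraries that were each run on 2 lanes.

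ATAC-seq reads mark DNA that the Tn5 transposase could reach. A peak is called opened here where it was listed as more accessible in GFPhigh cells, and closed where it was listed as more accessible in GFPneg cells. Its signal is the authors' mean normalised read count over all libraries of both groups, so it measures how many reads the region drew and not how the groups differed. No value per library was used, and no signal is therefore given with a spread. In bulk cells, fewer cells with a region open and a less open region in each cell cannot be told apart. Of all listed peaks, 50.8% (40828) were opened and 49.2% (39539) were closed. Among the 40 members, 29 were closed and 11 were opened. All 11 *Xkr4* peaks were closed, *Rassf9* had 8 closed and 5 opened peaks, and *Patj* had 10 closed and 6 opened peaks. Since the genes were selected through the closed list, nothing is read from these shares against the background.

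The 3 genes belong to unrelated families. *Xkr4* encodes a multi-pass membrane protein of the XK-related family, which includes phospholipid scramblases that are switched on by caspase cleavage and move phosphatidylserine to the cell surface. *Rassf9* encodes a protein with a Ras-association domain of the N-terminal RASSF group, first described as a partner of a peptide-processing enzyme of secretory granules in recycling endosomes. *Patj* encodes a scaffold built of many PDZ domains, which joins the Crumbs complex through PALS1 and helps to place tight junctions and the apical pole of epithelial cells. NE cells of the lung are epithelial cells with secretory granules, and in culture NE SCLC cells tend to float in clusters whereas non-NE SCLC cells attach.

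The sequences that follow come from the 4 strongest regions of the 3 genes, the strongest opened intronic peak and the peak over an internal *Patj* start. They were read from the mm10 assembly (GRCm38.p6) and are written 5′ to 3′. Capitals mark short core strings of transcription factor families, found on either strand: CAGCTG (E-box, the kind of string that basic helix-loop-helix factors bind), TGACTCA (AP-1), TGTTTAC (FOX), GGAATG (TEAD), TTGGCA (NFI) and TGGGAA (RBPJ, the DNA-binding partner of Notch). GGAATG and TGGGAA share letters, so that 1 stretch can hold both. The *Xkr4* window lies just upstream of the gene at chr1:3671530-3671829 and is written along its minus strand. The other windows are on the plus strand. They are the distal closed *Rassf9* region at chr10:102762427-102762726, the opened *Rassf9* promoter at chr10:102511922-102512221, the opened *Rassf9* intron at chr10:102527917-102528216, the intron just before exon 5 of *Patj* at chr4:98410777-98411026 and the internal *Patj* promoter at chr4:98546310-98546609.
Xkr4 promoter, closed: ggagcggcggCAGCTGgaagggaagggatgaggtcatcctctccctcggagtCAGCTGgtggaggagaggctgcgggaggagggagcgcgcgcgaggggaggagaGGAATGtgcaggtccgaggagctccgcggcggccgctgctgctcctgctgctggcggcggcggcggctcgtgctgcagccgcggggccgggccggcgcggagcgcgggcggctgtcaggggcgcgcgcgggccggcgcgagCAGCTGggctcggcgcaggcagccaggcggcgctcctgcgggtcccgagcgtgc
Rassf9 distal region, closed: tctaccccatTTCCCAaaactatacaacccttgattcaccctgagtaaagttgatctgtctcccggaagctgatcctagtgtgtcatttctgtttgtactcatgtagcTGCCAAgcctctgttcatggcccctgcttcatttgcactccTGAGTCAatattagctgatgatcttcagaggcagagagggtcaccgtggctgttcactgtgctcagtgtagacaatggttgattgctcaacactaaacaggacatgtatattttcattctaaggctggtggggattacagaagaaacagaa
Rassf9 promoter, opened: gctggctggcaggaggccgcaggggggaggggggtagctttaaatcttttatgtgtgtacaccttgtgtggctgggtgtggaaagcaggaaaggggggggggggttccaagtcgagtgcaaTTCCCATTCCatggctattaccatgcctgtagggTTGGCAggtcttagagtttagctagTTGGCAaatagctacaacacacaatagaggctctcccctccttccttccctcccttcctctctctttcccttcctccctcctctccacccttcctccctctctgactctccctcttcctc
Rassf9 intron, opened: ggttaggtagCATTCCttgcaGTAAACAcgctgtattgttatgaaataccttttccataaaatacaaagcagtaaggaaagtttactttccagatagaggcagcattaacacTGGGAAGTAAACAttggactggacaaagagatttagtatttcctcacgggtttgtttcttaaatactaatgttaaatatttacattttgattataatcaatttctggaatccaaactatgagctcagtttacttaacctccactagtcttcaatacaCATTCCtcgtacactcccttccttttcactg
Patj exon 5 flank, closed: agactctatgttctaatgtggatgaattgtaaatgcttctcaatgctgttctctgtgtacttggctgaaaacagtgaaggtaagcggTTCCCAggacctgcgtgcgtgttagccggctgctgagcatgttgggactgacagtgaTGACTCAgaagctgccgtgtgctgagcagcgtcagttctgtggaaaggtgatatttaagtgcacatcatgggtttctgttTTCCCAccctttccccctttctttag
Patj internal promoter, closed: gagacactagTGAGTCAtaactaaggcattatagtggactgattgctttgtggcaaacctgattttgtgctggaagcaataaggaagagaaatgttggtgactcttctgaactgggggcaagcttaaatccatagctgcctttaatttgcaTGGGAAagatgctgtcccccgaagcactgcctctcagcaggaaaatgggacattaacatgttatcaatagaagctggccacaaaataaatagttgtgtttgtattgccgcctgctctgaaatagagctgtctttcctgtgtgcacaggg
The windows differed in base composition. The *Xkr4* window was 77.7% G and C and held 41 CpG dinucleotides in 300 bases. The *Rassf9* promoter window was 55.3% G and C with 2 CpG. The remaining windows ran from 35% in the *Rassf9* intron to 48% at *Patj* exon 5, with 2 to 6 CpG each.

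**Figure D1:**
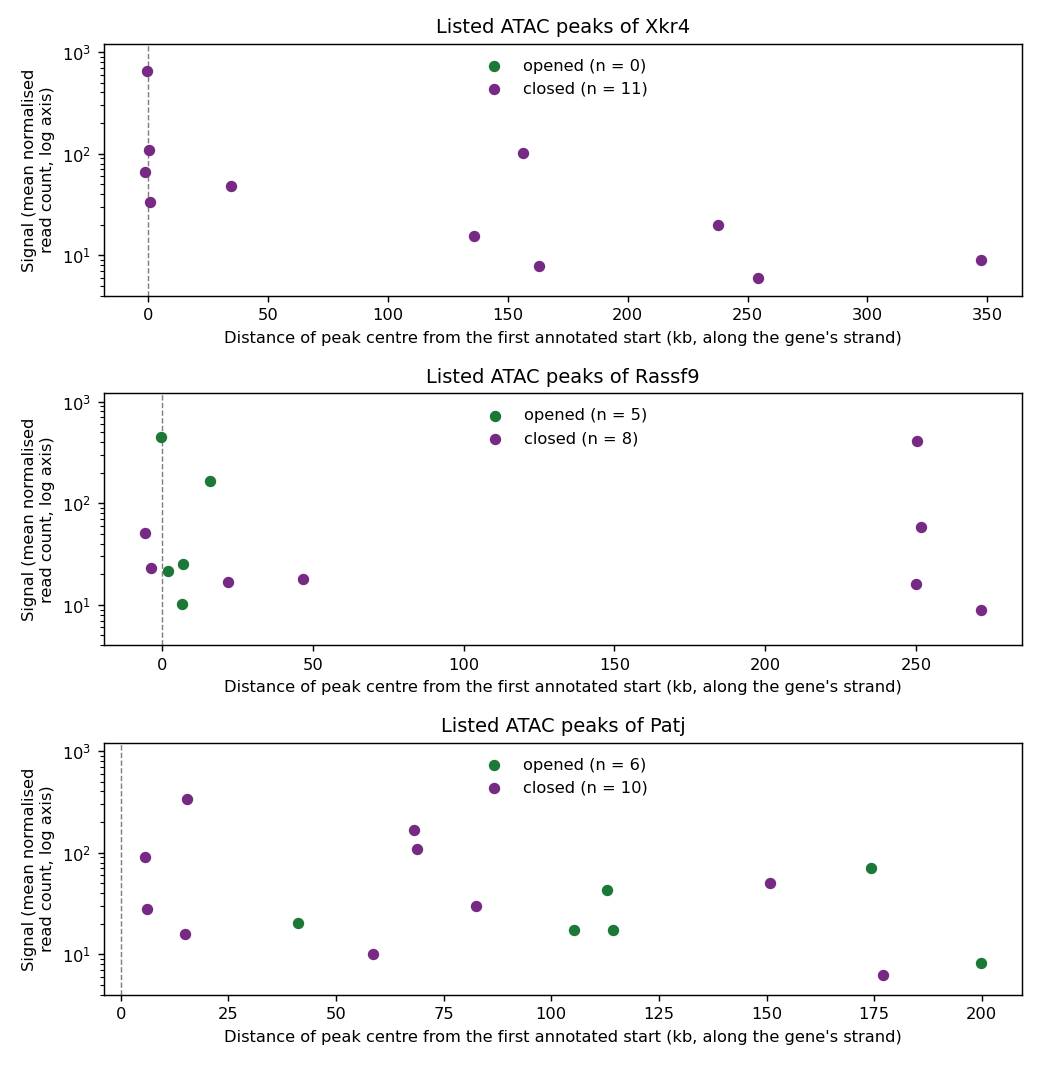
Each point is a listed peak of *Xkr4* (top), *Rassf9* (middle) or *Patj* (bottom), placed by the distance of its centre from the first annotated start of the gene (x, kb) and by its signal (y, mean normalised read count, log axis). Purple points are closed and green points opened. The strongest *Xkr4* peak, at 644, sat at the start, the strongest closed *Rassf9* peak, at 408, lay 250 kb away, and the strongest *Patj* peak, at 336, lay 15.3 kb inside the gene.

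*Xkr4* was closed at its start and along its introns. The gene lies at chr1:3214482-3671498 on the minus strand, has 1 annotated protein-coding transcript with a single start, and spans 457 kb. Its strongest peak, peak 10 (chr1:3671339-3672390, numbering the peaks of each gene along the chromosome), ran over the start site. Peak 10 had a signal of 644 and a width of 1052 bp. It ranked 15 by signal among the 39539 closed peaks, so that 0.0379% of them were at or above it, and 0.0759% were as wide. Among the 3827 closed peaks at promoters, whose median signal was 36.5, it ranked 9.

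Peak 10 was one of 4 closed peaks that stood close together across 2022 bp around the start. Peak 11 (chr1:3672460-3672630), upstream of it, had a signal of 66.2. Peak 9 (chr1:3670913-3671234) had 109 and peak 8 (chr1:3670609-3670742) had 33.8, and both lay inside the coding part of exon 1. The gaps between the 4 peaks were 170, 104 and 69 bp. Together they held 853 of the gene's summed signal of 1061, or 80.4%, and their GC content ranged from 64.2% to 75.8%. The other 7 *Xkr4* peaks had a GC content between 39.1% and 49.2%, on both sides of the median of all closed peaks (48.9%). 3 of the 4 peaks had their centre within 1 kb of the start. Of the 1847 genes with a closed peak that close to a start, 176 (9.53%) had 3 or more there.

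**Figure D2:**
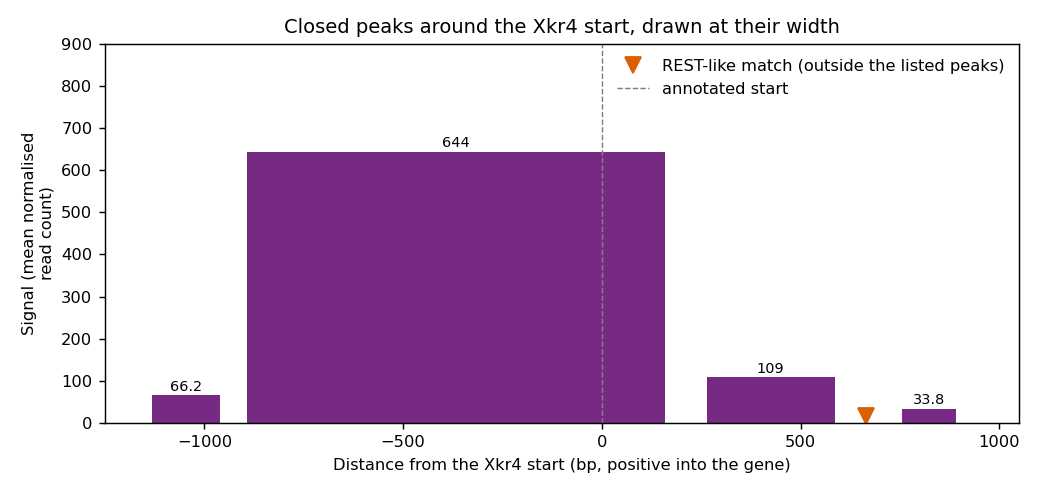
Bars show the 4 closed peaks around the *Xkr4* start at their true width, by distance from the start (x, bp, positive into the gene) and signal (y, mean normalised read count, from 0). The bar over the start reaches 644 and its neighbours 66.2, 109 and 33.8. The orange triangle marks the REST-like match, which falls in the gap of 170 bp between the 2 peaks inside exon 1.

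The gap between peaks 8 and 9 held a close match to the binding site of REST, the repressor that keeps neuronal and neuroendocrine genes off in other cells. The consensus of 20 bases, the REST entry of the study's motif list, was first searched in the listed peaks and then, after those results were seen, within 1 kb of the first start of each of 21827 protein-coding genes. At *Xkr4* the best match lay at chr1:3670824-3670843 on the plus strand, 664 bp inside the gene and within the coding sequence of exon 1. It is shown in capitals with 10 bases on either side.
Xkr4 exon 1, REST-like match: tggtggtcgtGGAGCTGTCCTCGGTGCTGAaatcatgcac
Counted from 1 at the 5′ end of the match, it differed from the consensus by A11T and T12C. Matches with at most 2 mismatches were found near the start of 29 of the 21827 genes (0.133%). The match began 81 bp after the end of peak 8 and ended 69 bp before the start of peak 9, and so lay in no listed peak. Near the *Patj* and *Rassf9* starts the best matches had 6 and 7 mismatches, numbers reached by 29.9% and 79.4% of genes. Inside the 40 members the closest match had 6 mismatches. A match of letters is not evidence that REST was bound. The study also ran ChIP-seq of REST in GFPhigh cell lines, which was not used here.

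The *Xkr4* promoter peak also held 3 CAGCTG E-boxes, all in the printed window, at chr1:3671578-3671583, chr1:3671772-3671777 and chr1:3671814-3671819. The central 200 bp of the peak held 2 of them. Of all closed peaks, 3.05% had at least 2 such strings in their central 200 bp, and of closed promoter peaks 2.98% had. Shares of this kind were computed for E-box and FOX strings only, of 9 families searched, so they do not mark the peak as unusual. The peak held no AP-1 string and no FOX string.

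Away from the start, *Xkr4* had 7 closed peaks, all in its introns and all weaker than peaks 9 and 10. The strongest was peak 5 (chr1:3514723-3515286), with a signal of 102 and a width of 564 bp, which lay 497 bp from the start of Gm37329, a transcript annotated as still to be checked by experiment. Peak 7 (chr1:3636535-3637025), 34.7 kb inside the gene, had a signal of 48.4. The other 5 ranged from 5.95 to 19.7, all below the median of closed peaks, 25.8. The farthest was peak 1 (chr1:3324204-3324364), 347 kb from the start, at 9.03. No other protein-coding start lies on that side of the chromosome, and the nearest other one, that of *Rp1*, lay 687769 bp or more from every *Xkr4* peak. *Xkr4* was the nearest coding start over 1015 kb of assembled sequence, and its 11 peaks gave 1.08 per 100 kb, against a median of 5.23 over the 14580 genes with a listed peak.

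Genes with many listed peaks mostly had peaks in both lists. Of the 2055 coding genes with at least 11 listed peaks, 217 (10.6%) had only closed peaks, 93 (4.53%) only opened peaks and 1745 both. *Xkr4*, whose own count set the limit of 11, belonged to the first of these groups, and *Rassf9* and *Patj* to the last. *Xkr4* was chosen through a closed peak at its start, and of the 1847 genes with a closed peak within 1 kb of a start, 991 (53.7%) had no opened peak. These 1847 genes had any number of listed peaks, and the 2055 had any kind of start. Neither share therefore matches *Xkr4* on both counts.

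*Rassf9* was open at its start in GFPhigh cells while a strong region far downstream was closed. The gene lies at chr10:102512222-102549736 on the plus strand, with annotated starts at 102512222 and 102540248. Along the chromosome its peaks fell into 3 runs. The first 2 peaks, upstream of the gene, were closed, the next 5 were opened, and the last 6 were closed. The opened run reached from the start to 15.8 kb into the gene and summed to a signal of 674, against 600 for the 8 closed peaks.

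The strongest *Rassf9* peak was the opened one at the first start, peak 3 (chr10:102511568-102512508), with a signal of 452 and a width of 941 bp. Among 9093 opened promoter peaks, whose median signal was 137, it ranked 1173, so that 12.9% were at or above it. The second opened peak by signal was peak 7 (chr10:102527757-102528290) in the intron between the 2 starts, at 165, which 6.85% of opened intronic peaks reached. The other 3 opened peaks lay between them at 10.2, 21.7 and 25.1, all under the median of opened peaks (40.7). The second start had no listed peak within 1 kb. Its nearest peak was closed and stood 6103 bp upstream of it.

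The closed peak that chose the gene lay far outside it, in a cluster of 4. Peak 11 (chr10:102762343-102762824) had its centre 250 kb from the first start and 222335 bp from the second, and no annotated coding start was nearer, the next being *Alx1*, a homeobox gene, at 266194 bp. The nearest start of any gene type was that of Gm5175, a transcribed pseudogene, at 56737 bp, and Gm5175 was also the nearest for the other 3 peaks of the cluster. Its signal of 408 ranked 129 among all closed peaks and 10 among the 5650 closed peaks over 200 kb from a coding start, whose median was 21.8. At 482 bp it was narrower than the *Xkr4* and *Patj* regions, and its signal per 100 bp, 84.6, was reached by 0.121% of closed peaks. Peak 10, beside it, had a signal of 16.1, peak 12 had 58.5 and peak 13 had 8.83. These 4 peaks spanned 21439 bp and carried 81.8% of the closed signal of *Rassf9*. Distances over 200 kb were found for 14.3% of closed and 5.28% of opened peaks. Between peak 9, which ended at 102558924, and peak 10, which began at 102762211, no region was listed. Both starts being over 200 kb away, the assignment of this cluster to *Rassf9* is one of position only.

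The closed *Rassf9* peaks near the gene were weaker than the one that chose it. Upstream of the first start, peak 1 (chr10:102506590-102506912) had a signal of 51.3 at 5471 bp and peak 2 had 23.2 at 3752 bp. Downstream, peaks 8 and 9 had 16.8 and 17.8. The closed peaks upstream were also those nearest to *Nts*, the gene of the secreted peptide neurotensin, whose start lay 16265 bp from peak 1. Of 5818 genes with an opened peak within 1 kb of a start, 2301 (39.5%) also had a closed peak somewhere, and *Rassf9* was one of them.

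Most core strings occurred in both opened and closed *Rassf9* peaks. The distal closed peak had an AP-1 string, TGAGTCA, at chr10:102762576-102762582, 4 bp from its centre. AP-1 strings also stood in closed peaks 1 and 9, and in none of the 5 opened peaks. The opened promoter peak held TEAD strings at chr10:102511880-102511885 and chr10:102512047-102512052, the second overlapping an RBPJ string as TTCCCATTCC, and 3 NFI strings. The opened intronic peak held 2 FOX strings, at chr10:102527938-102527944 and chr10:102528035-102528041, and 2 TEAD strings. Of opened peaks, 0.247% had 2 FOX strings in the central 200 bp. As for the E-boxes of *Xkr4*, this share was computed for a picked family and does not mark the peak as unusual. Among closed peaks, a TEAD string stood in peak 8, a FOX string in peak 12 and NFI strings in peaks 2 and 11. RBPJ strings stood in 5 of the 8 when the whole peak was searched. In peaks 1 and 11 they lay outside the central 200 bp, where 16.3% of all closed peaks had one. TEAD factors are the DNA-binding partners of YAP1. These counts describe 13 peaks and were not tested.

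*Patj* had no listed peak at its main start, and closed and opened peaks alternated inside the gene. The gene lies at chr4:98395791-98719603 on the plus strand, with 7 coding transcripts and 6 start sites, 3 of them close together at the 5′ end. The nearest listed peak to those 3 starts lay 5591 bp away, inside the gene. All 16 peaks lay within the gene, from 5.69 to 200 kb from the first start, in 8 runs of one direction. The first 4 peaks were closed and summed to 470, and a second closed run of 4, from 58.6 to 82.4 kb, summed to 313. The 6 opened peaks summed to 178, against 840 for the 10 closed ones.

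The strongest *Patj* peak was peak 4 (chr4:98410749-98411445), with a signal of 336 and a width of 697 bp, 15.3 kb inside the gene. It ranked 236 among closed peaks, with 0.597% at or above it, and 7 among the 1404 closed peaks centred in an exon, whose median was 27.3. It covered exon 5 of the gene, chr4:98411027-98411166, which is coding throughout in the GENCODE annotation. The peak therefore joined the end of an intron, a whole coding exon and the start of the next intron. RefSeq places an additional *Patj* start at 98411027, the first base of this exon, so that the peak also covered an annotated start. The AP-1 string TGACTCA stood at chr4:98410921-98410927 in the intron before the exon, outside the central 200 bp. Peak 3, just before it, had a signal of 16.0.

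The second strongest was peak 7 (chr4:98463515-98464249), an intronic region of 735 bp with a signal of 165, which 3.05% of closed intronic peaks reached. Peak 8 (chr4:98464441-98464741) followed it with 108. Peak 1 (chr4:98401342-98401625), the listed peak nearest to the main start, had 90.3. An internal start of *Patj* was closed as well. Peak 13 (chr4:98546286-98546725) had a signal of 50.6 and lay 229 bp upstream of the GENCODE start at 98546734, and it covered the RefSeq start at 98546634. It held an AP-1 string at chr4:98546320-98546326.

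The opened *Patj* peaks were all weaker than closed peaks 1, 4, 7 and 8, but stronger than some of the other closed ones. The strongest opened one, peak 14 (chr4:98569965-98570287), had a signal of 71.4 and lay 174 kb inside the gene, and opened peak 11 (chr4:98508529-98508813) had 42.9. The other 4 opened peaks ranged from 8.13 to 20.5. The weakest of all *Patj* peaks was the closed peak 15 (chr4:98572753-98572825), with 6.33 over 73 bp, which followed opened peak 14 after a gap of 2465 bp.

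**Figure D3:**
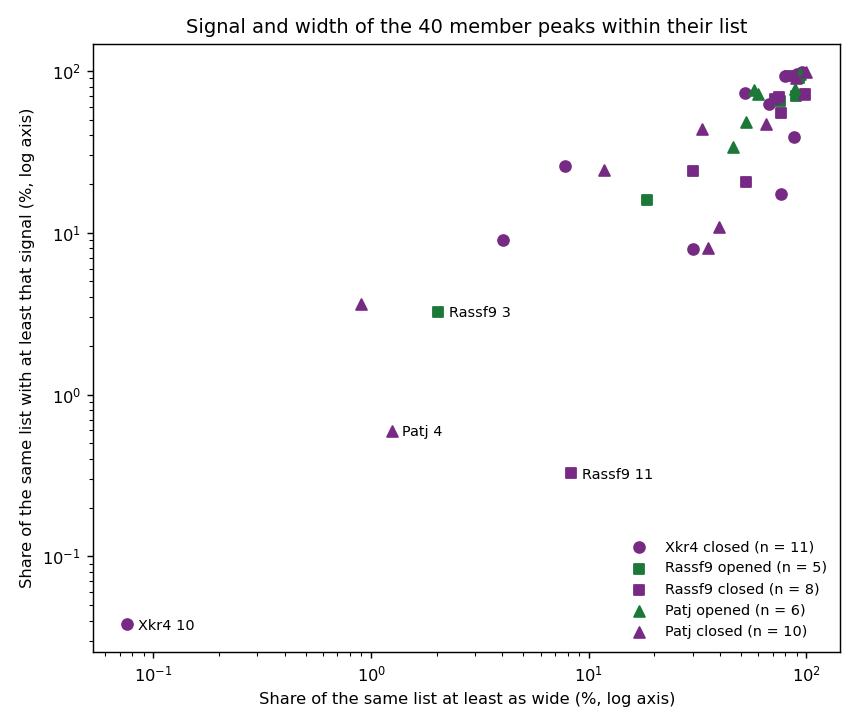
Each point is a member peak, placed by the share of its own list that is at least as wide (x, %, log axis) and the share with at least its signal (y, %, log axis), so that strong and wide peaks lie at the lower left. The *Xkr4* promoter peak (0.0759%, 0.0379%) stands apart from the other members, and the distal *Rassf9* peak is higher by signal (0.326%) than by width. Of the closed members 16, and of the opened members 4, lie above the median signal of their list.

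The strongest peak carried 60.7% of the summed signal at *Xkr4*, 35.5% at *Rassf9* and 33.0% at *Patj*, and it was 5.92, 1.11 and 2.03 times as strong as the next peak of its gene. At *Xkr4* and *Patj* this was the peak that chose the gene, and at *Rassf9* it was the promoter peak, with the choosing peak next. Of the 29 closed members 16 were above the median signal of closed peaks, and of the 11 opened members 4 were above the median of opened peaks. The median width was 203 bp for closed and 250 bp for opened members, against 248 and 300 bp over the lists.

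Strings of 9 families were counted in the central 200 bp of the members. The RBPJ string stood in 9 of 29 closed members, against 16.3% of all closed peaks, and in 4 of 11 opened members, against 20.6% of all opened peaks. AP-1 strings stood in 5 closed members and 0 opened ones, against 21.2% and 8.45% of the lists. TEAD strings stood in 3 closed and 3 opened members, against 8.78% and 18.1%, and E-boxes in 3 and 2, against 22.6% and 12.02%. FOX strings were found in 3 closed and 2 opened members, against 9.70% and 6.85% of the lists, and NFI strings in 2 and 3, against 13.4% and 18.0%. NKX2 strings (CACTTGA or CACTCAA), RUNX strings (TGTGGT) and SOX strings (CATTGTT) stood in 4, 3 and 3 closed members, against 8.29%, 13.8% and 5.81% of closed peaks, and in 0 opened ones, against 10.3%, 19.5% and 3.25% of opened peaks. With so few members, none of these counts is read as a difference from the lists.

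The relatives of each gene were described in the same way. Of the other 7 XK-related genes, 5 had listed peaks, 9 closed and 5 opened (64.3% closed, against 49.2% of all listed peaks). *Xkr7* had 1 closed peak, at its start, and *Xkr9* and *Xkr5* had 2 closed peaks each at theirs, whereas *Xkr8*, whose protein is a scramblase of apoptotic cells, had 1 peak, opened and at its start. The most closed peaks among them were 3, at *Xkr6* and *Xkr9*. *Xkr4* was picked through a closed peak and was the nearest coding start over 1015 kb, so it is not ranked against them. The other 9 RASSF genes had 64 opened and 21 closed peaks, a closed share of 24.7%, against 49.2% of all listed peaks. *Rassf3* had 21 opened and 2 closed peaks and the N-terminal members *Rassf8* and *Rassf10* had 7 and 4, and 14 and 5. *Rassf9*, picked through a closed peak, had 8 closed peaks, of which the 4 distal ones are assigned by position only. It shared with 6 others (*Rassf1*, *Rassf2*, *Rassf3*, *Rassf5*, *Rassf7* and *Rassf10*) an opened peak at a start.

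Of 18 other polarity genes, 17 had listed peaks, 110 opened and 87 closed (44.2% closed, near the 49.2% of all listed peaks). *Mpdz*, which encodes the paralog of PATJ with the same kind of PDZ repeats, had 10 opened and 19 closed peaks. Among the Crumbs genes, *Crb2* had 4 opened and 18 closed and *Crb3* had 2 opened peaks, both at a start. *Crb1* had 3 opened and 6 closed. *Mpp5*, which encodes PALS1, had 2 closed peaks. Among the Par genes, *Pard3* had 25 opened and 8 closed peaks, *Pard3b* 15 and 9, *Pard6b* 10 and 1, *Pard6g* 4 and 3, and *Pard6a* 2 and 0. *Prkci* had 5 and 0 and *Prkcz* 6 and 3. Of the angiomotin genes, *Amotl2* had 17 opened peaks and 0 closed, *Amotl1* had 7 of each and *Amot* had 0 opened and 2 closed. Of the Lin7 genes, *Lin7a* had 0 opened and 8 closed peaks, 3 of them at its start. *Lin7c* had 1 closed peak and *Lin7b* had none. The counts depend on how long each gene is and on its neighbours, and no share was tested.

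**Figure D4:**
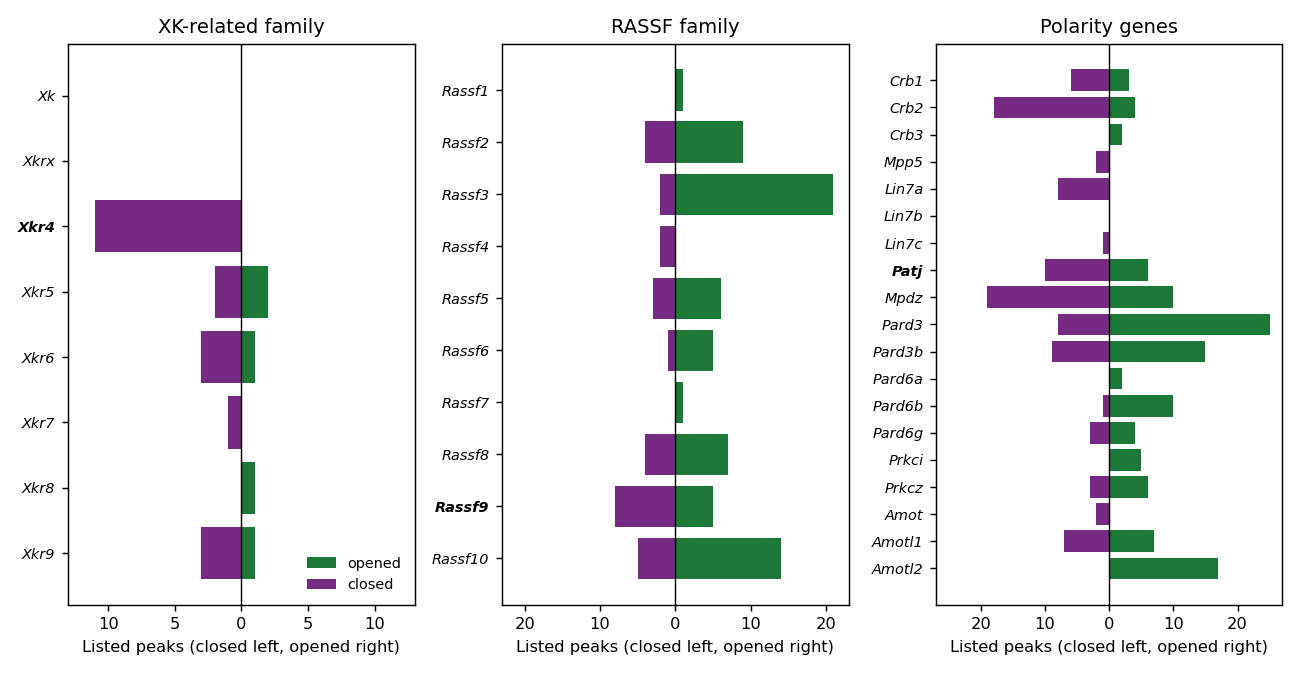
Bars count the listed peaks of each XK-related, RASSF and polarity gene, closed to the left (purple) and opened to the right (green), and the names in bold are *Xkr4*, *Rassf9* and *Patj*. *Xkr4* has 11 closed peaks and no opened one, *Rassf9* has 8 closed peaks, 4 of them over 200 kb from its starts, and *Patj* (10 closed, 6 opened) and its paralog *Mpdz* (19 closed, 10 opened) both have more closed than opened peaks.

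The neighbouring genes did not all follow the members. *Xkr4* was the first protein-coding gene of chromosome 1, with *Rp1* (no listed peak), *Sox17* (3 opened) and *Mrpl15* (5 opened, 1 closed) after it. On the lower side of *Rassf9*, *Nts* had 1 closed peak, *Mgat4c* had 10 and 1700017N19Rik had 3, with no opened peak among them. On the higher side *Alx1* and *Lrriq1* had 1 opened peak each and *Slc6a15* had 4 opened and 6 closed. Around *Patj*, *Nfia*, which encodes a factor of the NFI family, had 16 opened and 6 closed peaks, *Tm2d1* had 9 and 5, and E130114P18Rik had 4 and 14. *L1td1* and I0C0044D17Rik had 1 opened and 3 closed peaks each and *Kank4* had 1 opened peak.

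Marker genes were used to check the 2 populations. The NE markers *Calca* (4), *Insm1* (28) and *Uchl1* (4) had only closed peaks, *Chga* had 8 opened and 6 closed, and *Syp* had none. The non-NE list (*Hes1*, *Notch2*, *Rest*, *Yap1* and *Scgb1a1*) had 57 opened and 20 closed. Of these, 26 and 11 were at *Hes1*, the locus of the reporter used for the sort, which is therefore no independent check. *Notch2* had 13 and 6, *Scgb1a1* 12 and 3, and *Rest* and *Yap1* 3 and 0 each. Markers of cells that the sort was meant to remove also had listed peaks. Leukocyte markers had 13 opened and 5 closed (*Ptprc*, with 11 and 5 of them, *Cd3e* and *Cd68*). Endothelium markers had 10 opened and 35 closed, with 1 and 1 at *Pecam1*, 2 and 23 at *Cdh5* and 7 and 11 at *Kdr*. Fibroblast markers (*Col1a1*, *Col1a2* and *Pdgfra*) were split, with 7 opened peaks at *Col1a1* and 2 and 5 closed peaks at *Col1a2* and *Pdgfra*. Listed peaks were common, at 14580 of the 21827 protein-coding genes, and 49.2% of all listed peaks were closed. These counts therefore do not show whether such cells were present. The part of such cells in the *Xkr4*, *Rassf9* and *Patj* peaks was not tested.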

How the data were processed

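ATAC-seq libraries of GFPhigh and GFPneg SCLC cells were described by 16 runs (8 libraries on 2 lanes each), grouped by the GFP status and pair in the labels. The authors trimmed the reads, aligned them to mm10 with Bowtie2 2.3.4.1, removed duplicates with Samtools, called narrow peaks with MACS2 (version not given in the sources used here), extending and shifting reads around the Tn5 insertion sites, merged the peaks, counted reads with bedtools and compared the groups with DESeq2 1.28.1. They deposited the peaks past their limits on adjusted p and fold change, as an opened and a closed list. How the 2 lanes of a library entered the counts is not stated. The signal used here is the authors' deposited mean normalised count over all libraries, so the depth per library is unknown. The 5 other value columns (log2 fold change, its standard error, the test statistic, p and adjusted p) hold the authors' own comparison. None was read or printed here, but the 3 genes had been chosen through the adjusted p. Other accessible regions were not analysed here.

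The values were computed with numpy 2.4.6 and pandas 2.3.3 under Python 3.11.15, and the plots with matplotlib 3.10.9. Positions are 1-based. Each peak went to the gene whose protein-coding start was closest to its centre (GENCODE basic, mouse release 21, GRCm38), and was classed by its centre as promoter (within 1 kb of any annotated start), exon, intron or intergenic. The assignment, classes and string search recovered every answer on simulated data. Core strings were counted in the central 200 bp of each peak and placed in the whole peak. Sequences came from the RefSeq copy of the assembly, and RefSeq starts from its promoter windows, which held *Patj* only. The 3 genes, the gene lists and the strings were chosen with earlier results of these data known. The named peaks are, by rule, those at promoters and exons, the nearest and farthest, the 3 strongest per list, the widest and the 3 that chose the genes, and other peaks were named after their values were seen, as were the single relatives picked as examples. One marker gene is not reported here. No test was run, because no replicate values were used. Alternatives were another assignment of peaks to genes, merging of peaks within 100 bp, a minimum signal of 20, a promoter distance of 3 kb and other motif windows.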

Additional observations from a re-analysis of the deposited data

How the results depend on the processing

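No paired analysis was possible because the values used are pooled over all libraries, and for the same reason no replicate could be left out. *Xkr4* kept only closed peaks under each assignment tried, but their number fell from 11 to 4 when the nearest start of any gene type was used, to 5 within 100 kb of the start and to 6 with a signal of at least 20. That signal minimum left 8 peaks at *Rassf9* and 10 at *Patj*. A promoter distance of 3 kb gave *Rassf9* 2 promoter peaks in place of 1. The closed share of *Rassf9*, 61.5%, ranged from 44.4% to 63.6%, so that opened peaks were the majority where the distal cluster was left out, and that of *Patj*, 62.5%, from 57.1% to 70%. Motif counts moved with the window. The central 100 bp held 2 members with AP-1, 3 with E-box, 3 with TEAD, 2 with NKX2 and 0 with SOX strings, against 5, 5, 6, 4 and 3 in the central 200 bp. Whole peaks held 8 with E-box, 8 with NFI and 5 with RUNX strings, against 5, 5 and 3. The causes of these moves lie in the alternatives themselves, which keep fewer peaks or shorter or longer windows. Depth per library is unknown, so no count is given with an error.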
